A study of Mus musculus with 4 samples.

Results

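Complex I, or NADH:ubiquinone oxidoreductase, was examined in heart ventricles of mice at postnatal day 14 through the 42 protein coding rows of the deposited gene table whose symbol begins with Nduf followed by a subunit or assembly factor letter code and a number. The table holds 36814 rows, of which 24454 were tested by the authors, and all 42 members were among them. By symbol, 38 of the members are structural and 4 are Ndufaf assembly factors. The study compared 2 wild type mice with 2 Hnrnpu mutants, the latter made by crossing a conditional Hnrnpu allele to a Ckmm-Cre transgene, in which the promoter of muscle creatine kinase drives Cre recombinase. Each group held 1 male and 1 female on a mix of C57BL/6 and 129 S4, the tissue was ventricle with the atria removed, and the labels do not say whether the controls carried Cre or a floxed allele. The authors gave 1 RPKM value (reads per kilobase of transcript, scaled to the mapped reads of a library) per group, so levels below have no spread between animals, and depth is not stated.

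Complex I is the entry point of electrons from NADH into the respiratory chain. Its peripheral arm stands in the matrix, oxidises NADH and passes electrons over iron-sulfur clusters to ubiquinone, and its membrane arm pumps protons. A conserved core does the chemistry, and accessory subunits surround it. Assembly factors help to build the complex and are not part of the finished enzyme. Part of the core is encoded by mitochondrial DNA, and the heart, which depends on oxidative metabolism, is rich in the complex.

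The series' own controls were read first. Hnrnpu, which codes for the nuclear RNA-binding protein hnRNP U, was listed at 32.7 RPKM in control against 15.2 RPKM in mutant, with adjusted p = 0.438 in the authors' deposited table. The 12 cardiomyocyte markers lay between 52.2 and 2380 RPKM in control, as heart muscle would show. Most of them are expressed in atria too, so the removal of the atria was not tested. All 7 mitochondrially encoded subunit genes (mt-Nd1 to mt-Nd6 and mt-Nd4l) were listed at 0 in both groups, as were all 38 rows of the mitochondrial genome, so only the nuclear part of the complex could be described.

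No complex I gene passed the authors' test, yet 36 of 42 were listed lower in mutant than in control, Ndufaf3 among them by a log2 value of -0.0007. The median log2 fold change of the 42 members was -0.46, from -1.30 for Ndufa3 to 0.98 for Ndufa4l2. In whole ventricle, fewer cells of a type and less RNA per cell cannot be told apart. Over the 18352 protein coding rows tested, the median was 0.08 and 46.5% lay below control, and among the 926 of them with a mean of at least 20 RPKM, a level nearer to that of most subunits, the median was 0.35 and 34.7% lay below. A call required an adjusted p-value below 0.05 in the authors' deposited table, which 0 of the 42 members reached, against 3.51% of all tested rows in either direction. At an unadjusted p below 0.05, 2 members were lower, which is 2 of 42 beside 6.2% of all tested rows in that direction. Both counts are near or under these shares. The RPKM of all rows summed to 162721 in control against 162859 in mutant, while that of protein coding rows was 109499.7 against 132205.

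**Figure D1:**
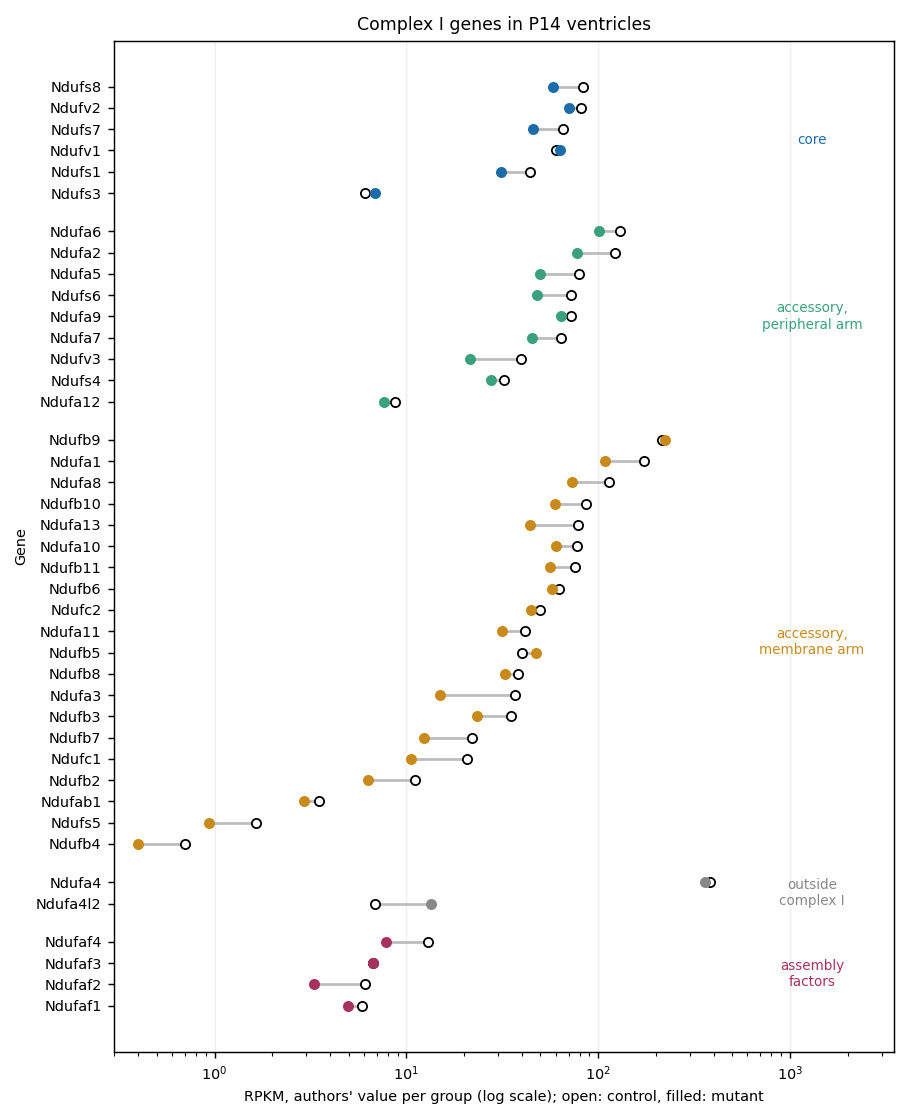
Level of 41 of the 42 members as the authors' RPKM value per group, on a log axis, with control as open and mutant as filled circles, grouped by role. The filled circle lies left of the open one, or for Ndufaf3 on it, for 36 of them, and the structural rows run from Ndufb4 at 0.702 RPKM to Ndufa4 at 383 RPKM in control.

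The precision of the comparison was read from the deposited values. An error on the log2 scale was taken from each deposited log2 fold change and p-value, treating the p as that of a two-sided normal test. This implied error had a median of 0.52 over the 39 members with a p below 0.9, so a 95% interval spans about 1 log2 unit to either side. For 33 members the interval held both 0 and -1, that is, both equal levels and a fall to 50% of control. The smallest change called among the 4281 protein coding rows with a mean of at least 5 RPKM was 1.60 on the log2 scale, larger than that of any member.

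**Figure D2:**
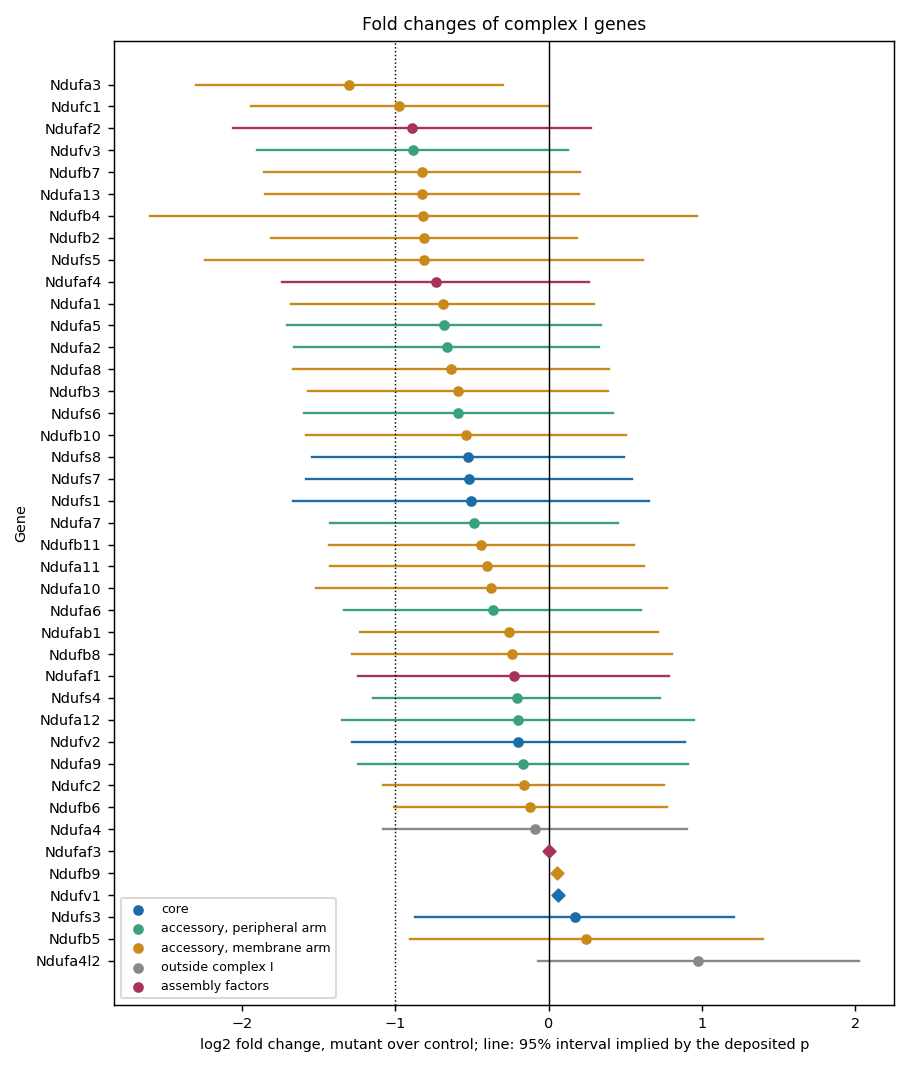
Log2 fold change (mutant over control) of 41 of the 42 members, ordered by value and coloured by role, with the 95% interval implied by the deposited p as a line. The dotted line marks -1, and diamonds mark the 3 members without an interval. The intervals of Ndufa3 and Ndufc1 lie below 0.

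The 7 nuclear core subunits had the median nearest to control among the structural groups, a log2 fold change of -0.20. Ndufv1, which binds NADH and the flavin, was listed at 60.4 RPKM in control against 62.9 RPKM in mutant. Its partner Ndufv2, an iron-sulfur subunit, was at 81.1 and 70.6 RPKM. Neither had an unadjusted p under 0.05.

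Further iron-sulfur subunits of the core were listed lower. Ndufs1, the largest subunit of the peripheral arm, was at 44.1 RPKM in control against 31.0 RPKM in mutant. Ndufs7 and Ndufs8, which carry clusters on the path to ubiquinone, were at 65.7 and 83.8 RPKM in control against 45.8 and 58.1 RPKM in mutant. These 3 had log2 fold changes between -0.51 and -0.53 in the authors' deposited table.

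Ndufs3, another core subunit of the peripheral arm, was at 6.11 RPKM in control against 6.87 RPKM in mutant, a log2 fold change of 0.17 (p = 0.751 in the authors' deposited table). None of the 7 core genes had an unadjusted p under 0.05.

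The 9 accessory subunits of the peripheral arm were all listed below control, with a median of -0.49. The lowest was Ndufv3 (chromosome 17, 31657060 to 31668266, mm9), an accessory subunit of the NADH-oxidising module, at 39.8 RPKM in control against 21.5 RPKM in mutant. For it the authors' deposited table gives p = 0.0864 and adjusted p = 0.514. Ndufs4, whose loss in mice is a widely used model of mitochondrial disease, was at 32.1 and 27.7 RPKM, a fold of 0.865. Ndufa9 had the value closest to control in this group, at 71.9 and 63.9 RPKM. Ndufa6, Ndufa2, Ndufa5, Ndufs6, Ndufa7 and Ndufa12 lay between these, from -0.68 for Ndufa5 to -0.20 for Ndufa12 on the log2 scale.

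Accessory subunits of the membrane arm had the lowest median of the structural groups, -0.57, with 18 of 20 below control. Ndufa3 (chromosome 7, 3568975 to 3571765), a small subunit of the part of the membrane arm next to the peripheral arm, was listed at 37.0 RPKM in control against 15.0 RPKM in mutant. This was the only member below 50% of control. In the authors' deposited table its log2 fold change was -1.30 with p = 0.0107 and adjusted p = 0.165, and its implied interval ran from -2.30 to -0.30.

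Ndufc1 (chromosome 3, 51208599 to 51212910), another small membrane subunit, was at 20.8 RPKM in control against 10.6 RPKM in mutant. Its log2 fold change in the authors' deposited table is -0.98, with p = 0.0489 and adjusted p = 0.393. Ndufc1 and Ndufa3 are the 2 members with an unadjusted p under 0.05. Ndufc2, which sits beside Ndufc1 in the complex, was at 50 RPKM in control against 44.7 RPKM in mutant, a log2 fold change of -0.16.

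The other subunits of the membrane arm, the most abundant Ndufb9 and Ndufa1 among them, did not share a value. Ndufb9 was listed at 215 RPKM in control against 224 RPKM in mutant, and Ndufa1 (X chromosome) at 174 and 108 RPKM. Ndufa13, also known as GRIM-19, was at 78.5 and 44.3 RPKM, and Ndufb7 at 21.9 and 12.3 RPKM, each with a log2 fold change of -0.83 in the authors' deposited table. Ndufb5 was the other member of this group above control, at 40.1 and 47.5 RPKM. Ndufa8, Ndufa10, Ndufa11, Ndufb2, Ndufb3, Ndufb4, Ndufb6, Ndufb8, Ndufb10, Ndufb11, Ndufab1 and Ndufs5 were below control, from -0.82 for Ndufb4 to -0.12 for Ndufb6. Ndufab1 is the mitochondrial acyl carrier protein, which also acts in fatty acid synthesis. The table held no row matched to Ndufb1, which is not analysed here. Across the 38 structural rows the level in control and the log2 fold change gave a Spearman rho of 0.09, a description over genes that share the same 2 groups. The control value enters both quantities, so this rho cannot show whether the fold depends on the level.

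2 rows that the naming rule counts as structural are not subunits of complex I. Ndufa4, since reassigned to cytochrome c oxidase, was the most abundant member, at 383 RPKM in control against 359 RPKM in mutant, a log2 fold change of -0.09. Ndufa4l2 (chromosome 10, 126951995 to 126954208), its paralog and a known target of hypoxia-inducible factor, was at 6.87 RPKM in control against 13.5 RPKM in mutant. In the authors' deposited table this is a fold of 1.97 with p = 0.0682 and adjusted p = 0.461. Ndufa4l2 overlaps Shmt2 on the other strand, a mitochondrial serine hydroxymethyltransferase that rose from 5.27 to 27.2 RPKM (adjusted p = 0.000521 in the authors' deposited table). The use of strand is not given in the sources used here, so reads from the overlapping part of this pair could not be told apart. The length of that part was not measured. Without these 2 rows the median of the remaining 36 was -0.50, with 31 below control.

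The 4 Ndufaf assembly factors were listed at lower levels than most subunits, with a median of 6.40 RPKM in control, where that of the structural rows was 61.4 RPKM. The medians in mutant were 5.84 and 45.6 RPKM. Ndufaf2, a paralog of the subunit Ndufa12 that acts late in assembly, was listed at 6.09 RPKM in control against 3.28 RPKM in mutant, a log2 fold change of -0.89 (p = 0.133 in the authors' deposited table). Ndufaf4 was at 13.0 and 7.79 RPKM, a log2 fold change of -0.74 with p = 0.149 in the authors' deposited table. Its partner in early assembly, Ndufaf3, was at 6.70 RPKM in both groups. Ndufaf1, which helps to build the membrane arm, was at 5.84 and 4.98 RPKM. Ndufaf1 and Ndufaf3 thus lay nearer to control than the other two, and the median of the 4 was -0.48.

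This median was 0.02 away from that of the structural rows, and the contrast depended on which assembly factors were counted. RefSeq synonyms found Ndufaf5, Ndufaf6, Ndufaf7 and Ndufaf8 in the table under older symbols, at 1.14, 3.69, 3.69 and 6.12 RPKM in control against 1.18, 2.27, 3.84 and 4.47 RPKM in mutant. Ndufaf5, which modifies the core subunit Ndufs7, and Ndufaf7, a methyltransferase, were the pair above control. With these 4 the median of the 8 Ndufaf genes was -0.34.

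Assembly factors without an Ndufaf name had a median of 0.15 over 10 matched genes of 11 listed, with 6 above control. Acad9, Ecsit, Tmem126b and Timmdc1, among the factors that act together with Ndufaf1 on the membrane arm, were listed above control, none with an unadjusted p under 0.05. Acad9 and Tmem126b were low, at 1.90 and 1.69 RPKM in control against 2.10 and 1.99 RPKM in mutant. Ecsit was at 20.4 and 23.2 RPKM and Timmdc1 at 5.62 and 7.62 RPKM. Ndufaf1 itself was below control, as were Tmem70 at 16.1 and 13.6 RPKM and Tmem186 at 3.83 and 3.78 RPKM. Dmac2, a factor for the distal membrane arm found under an older symbol, was at 8.48 RPKM in control against 3.35 RPKM in mutant. Its log2 fold change in the authors' deposited table is -1.34, with p = 0.00943 and adjusted p = 0.153. Foxred1 was at 7.68 and 4.38 RPKM. Over all 18 factors the median was -0.01, against -0.50 for the 36 subunits. The difference between the classes has no test, because genes are not replicates of a condition.

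Among the other respiratory complexes, complex III was closest to complex I in its median, -0.46 over 9 genes, and complex II was above control at 0.07 over 4. Complex IV had a median of -0.20 over 13 genes and ATP synthase of -0.16 over 16. Of the genes of these complexes, 1 was called, where 3.51% of all tested rows were called in either direction. This was Cox7a1, the heart and muscle form of a small subunit of cytochrome c oxidase, which fell from 130 to 31.5 RPKM (adjusted p = 0.00594 in the authors' deposited table). Within complex III the core proteins Uqcrc1 and Uqcrc2 were at 160 and 91.3 RPKM in control against 264 and 142 RPKM in mutant, with no call. The small subunits Uqcrb and Uqcr11 were at 28.5 and 82.9 RPKM in control against 13.6 and 38 RPKM in mutant. Cox8b of complex IV was at 194 against 71.3 RPKM and Atp5h of ATP synthase at 48.5 against 21 RPKM. Each had an unadjusted p under 0.05 but was not called, and 6.2% of all tested rows were lower at that level. In complex I the median of the 29 accessory subunits was -0.54 and that of the core -0.20, a difference that has no test.

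**Figure D3:**
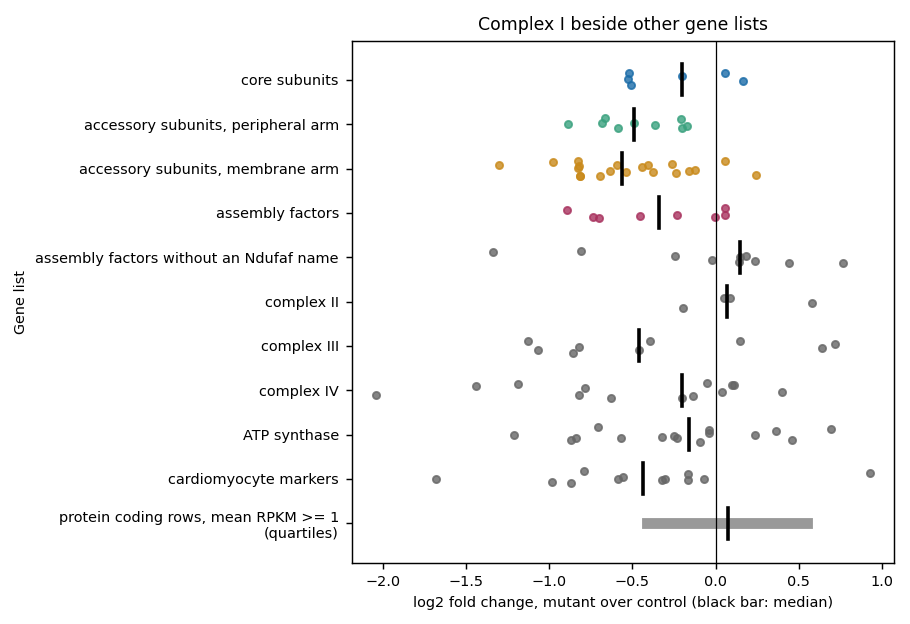
Log2 fold change of genes in the complex I groups (1 core subunit has no point but counts in the median), other respiratory complexes and cardiomyocyte markers, with the median of each list as a black bar, and the quartiles of protein coding rows with a mean of at least 1 RPKM as a grey bar. The medians of the accessory subunits lie at -0.49 and -0.57, those of complex II and of the coding rows at 0.07. Atp5g2, listed at 0 in control, has no point.

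Regulators of respiratory genes were listed lower in 8 of 12 cases, with a median of -0.56. Ppargc1b, a coactivator of the PGC-1 family, was the 1 gene of the 12 called, beside 3.51% of all tested rows in either direction. It fell from 14.8 to 3.18 RPKM (adjusted p = 0.00225 in the authors' deposited table). Ppara, a nuclear receptor for fatty acids, was at 3.31 and 1.18 RPKM with p = 0.00546 and adjusted p = 0.107 in the authors' deposited table. Ppargc1a was at 10.7 and 6.63 RPKM and its partner Esrra, an estrogen-related receptor, at 17 and 9.13 RPKM, both without a call. Nrf1, Yy1 and Tfam, which act on the nuclear and mitochondrial genes of the chain, were within 0.13 of control on the log2 scale in the authors' deposited table. Other regulators of the list were further from control. Gabpa, Gabpb1, Esrrg and Pprc1 were at -0.34, -0.73, -1.01 and -0.42, and Esrrb was at 0.57. None of these had an unadjusted p under 0.05.

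Markers of the cell types of the heart are given beside the subunits, and their part in the result was not tested. None of the markers was listed at 0. Cardiomyocyte markers had a median of -0.44 with 11 of 12 below control and 0 called. Only 1 of them (Ryr2) was lower at an unadjusted p under 0.05, beside 6.2% of all tested rows. The summed level of the cardiomyocyte markers was 10530 RPKM in control against 10635 RPKM in mutant, of which Actc1 made 2380 and 4530 RPKM. Endothelial markers had a median of -0.43 over 7, with 6 below control and Pecam1 above it. Fibroblast and macrophage markers had medians of 0.997 and 0.96, each over 8 genes, with 0 called. At an unadjusted p under 0.05, 3 of each were higher, beside 6.4% of all tested rows. These were Pdgfra, Tcf21 and Postn, and C1qa, C1qb and C1qc. Below control were 2 fibroblast markers, Dcn at 278 against 250 RPKM and Lum at 62.9 against 39.9 RPKM, and 0 macrophage markers. Summed levels of the fibroblast and macrophage markers were 688 and 58.1 RPKM in control against 965 and 131 RPKM in mutant. Mural cell markers had a median of 0.05 over 6, with 2 below control and Acta2 at 158 against 802 RPKM.

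The subunits stand in fixed proportion in the assembled complex. Their listed levels spanned 0.702 to 215 RPKM in control, and the lowest of them share sequence with processed copies, intronless genomic duplicates of an mRNA. The coding sequence of each member in GENCODE M21 was cut into windows of 36 bases, and each window was looked up in the transcripts of all other genes. In 6 of the 36 subunits over 50% of windows were found elsewhere: Ndufab1 and Ndufb4 (100%), Ndufs5 (78.8%), Ndufa12 (76.5%), Ndufb2 (63.6%) and Ndufs3 (59.8%). These 6 were also the lowest in level, from 0.702 to 11.1 RPKM in control, whereas the other 30 began at 20.8 RPKM and had a median of 68.8 RPKM. For Ndufb2 the shared windows lay in 3 other genes. Of the coding windows of Ndufb2, 39.3% were found in Gm42420 and 18.2% in Gm16272, which overlaps Ndufb2 on the other strand. Neither is annotated as a processed copy. The place of Gm42420, and the type and place of the remaining gene, are not given here.

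Several copies have rows of their own in the table, at levels above those of their subunits. BC002163 (chromosome 16, 42955744 to 42956064, mm9), a copy of Ndufs5, was listed at 48.5 RPKM in control against 28.9 RPKM in mutant, and Ndufs5 itself at 1.65 and 0.939 RPKM. Gm12251 (chromosome 11, 58206271 to 58207065), a copy of Ndufs3, was at 70.9 and 66.2 RPKM, 11.6 times the control level of Ndufs3. Gm15920 (chromosome 5, 130664265 to 130664666), a copy of Ndufa12, was at 68.6 and 55.8 RPKM, and Ndufa12 at 8.73 and 7.60 RPKM.

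Stretches of 60 coding bases show how alike subunit and copy are. They were read from GENCODE M21 transcripts, 5′ to 3′, as the stretch of each ungapped alignment with the most differences, with the bases that differ in capitals. Coding bases are counted from the start codon.
Ndufs5, coding bases 46 to 105: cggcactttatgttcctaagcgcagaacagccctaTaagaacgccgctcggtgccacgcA
BC002163: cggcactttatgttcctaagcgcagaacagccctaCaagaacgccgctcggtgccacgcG
Ndufs3, coding bases 1 to 60: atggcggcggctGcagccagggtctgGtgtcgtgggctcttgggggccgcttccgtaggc
Gm12251: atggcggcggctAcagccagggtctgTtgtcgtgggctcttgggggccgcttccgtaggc
Ndufa12, coding bases 76 to 135: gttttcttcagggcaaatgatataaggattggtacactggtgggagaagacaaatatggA
Gm15920: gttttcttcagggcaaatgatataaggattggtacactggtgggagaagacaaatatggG

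Over the whole alignments the identity was 99.4% for Ndufs5, 98.6% for Ndufs3 and 99.5% for Ndufa12. In all, 13 processed copies of 11 subunits shared at least 10% of coding windows, 9 of them had a row in the table, and 5 of the 9 were listed above their subunit in control. Of the 8 copies above 0, 7 were below control, with a median log2 fold change of -0.33 and 0 called. Ndufb4 and its identical copy Ndufb4c were both low, at 0.702 and 0.183 RPKM in control, and Ndufab1 was at 3.52 RPKM beside 7.26 RPKM for its copy Gm4459. How the authors treated reads that match several places is not given in the sources used here, so levels of these subunits are uncertain, and the part of the copies in the low levels was not tested. The 6 subunits had a median log2 fold change of -0.54 and the other 30 of -0.50.

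**Figure D4:**
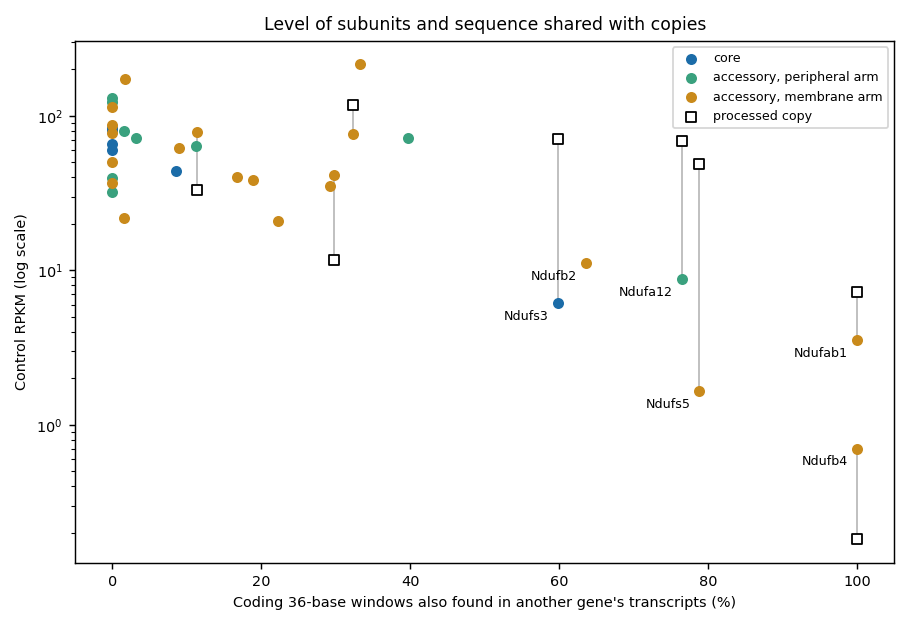
Control RPKM (log axis) of 35 of the 36 subunits against the share of their coding 36-base windows found in another gene's transcripts, with processed copies as open squares joined to their subunit. The 6 subunits beyond 50% lie at or below 11.1 RPKM, and the copies of Ndufs3, Ndufa12 and Ndufs5 lie at 70.9, 68.6 and 48.5 RPKM.

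Promoters were examined because 36 of the 42 members, which lie on 16 chromosomes, were on the same side of control. RefSeq windows (GRCm38.p6) from 250 bases before to 50 after the start site were at hand for 37 of the 42 members, 39 windows in all. The motif AAGATGGC, the core of a site known for the factor YY1, was found in 7 of 39 member windows (17.9%) and in 2.75% of all 32851 windows, on either strand. The motifs, the length of the shared windows and the stretches shown were chosen after the members' values had been seen. In all 7 the YY1 motif lay on the coding strand, began 23 to 39 bases into the transcript and held the start codon of the subunit. The share over all windows was not limited to windows that hold a start codon. The percentages therefore do not compare like windows and were not tested. The 7 sites are shown because of their shared position, 5′ to 3′ on the gene's strand, with the motif in capitals.
Ndufa3, chr7:3617384-3617413, plus strand: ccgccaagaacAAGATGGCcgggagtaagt
Ndufc1, chr3:51408915-51408944, minus strand: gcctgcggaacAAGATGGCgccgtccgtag
Ndufs7, chr10:80249462-80249491, plus strand: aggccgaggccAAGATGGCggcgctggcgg
Ndufa9, chr6:126849097-126849126, minus strand: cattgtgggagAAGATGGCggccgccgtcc
Ndufs6, chr13:73328433-73328460, minus strand: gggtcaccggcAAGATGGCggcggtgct
Ndufs4, chr13:114388045-114388070, minus strand: ttgcctacaggAAGATGGCggcggtc
Ndufb8, chr19:44555393-44555415, minus strand: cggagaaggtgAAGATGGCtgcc

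The 7 genes include the 2 lowest folds, Ndufa3 and Ndufc1, but also Ndufa9 and Ndufs4 near control, and their median log2 fold change was -0.52 against -0.46 for the other 30 genes with a window. The palindrome CGCATGCG, the core of the site of nuclear respiratory factor 1, was in 3 member windows (7.69%) and in 1.87% of all windows. Its sites lay 112, 59 and 9 bases before the start of Ndufaf4, Ndufa11 and Ndufa8.
Ndufaf4, chr4:24897960-24897989, plus strand: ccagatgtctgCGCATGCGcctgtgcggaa
Ndufa11, chr17:56717692-56717721, plus strand: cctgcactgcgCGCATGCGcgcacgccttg
Ndufa8, chr2:36049329-36049358, minus strand: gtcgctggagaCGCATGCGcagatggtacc

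The ETS-type motif CCGGAAGT was in 1 member window, that of Ndufs3 (2.56%), and in 3.89% of all windows. The motif AAGGTCA, part of the site of estrogen-related receptors, was in 3 member windows (7.69%), those of Ndufs5, Ndufb2 and Ndufb4, and in 4.72% of all windows. The median log2 fold change of these 3 was -0.81, against -0.42 for the other 34 genes with a window, a contrast that was not tested. All 3 are among the 6 subunits with over 50% of coding windows found elsewhere. The motif matches describe letters in a window and not bound sites.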

How the data were processed

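RNA was measured by sequencing in ventricles of 2 control and 2 mutant mice. The authors deposited 1 table of RPKM values, 1 per group, per the file headers. Beside them, per the file headers, stand a fold (ratio, mutant to control), the same on the log2 scale, and the authors' p-value before and after adjustment. Bowtie 0.12.9, DESeq and the mm9 build are named, without roles, per the submitters' processing notes. The annotation, counting rule, use of strand and depth were not given in the sources used here.

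The design allowed for counts or RPKM per animal. The table held neither, so the authors' test across all genes was used as planned for this case, with calls at adjusted p below 0.05 (Benjamini-Hochberg). The adjustment recomputed over 24454 rows differed by at most 0.593% from the deposited one, and the RPKM ratio from the deposited fold by at most 0.971% over 10320 rows (those of 1 RPKM or more in each group). Functions were tested on simulated data. Members and lists were chosen with earlier results of these data known. Named were members with an unadjusted p below 0.05, the 3 lowest and 3 highest structural folds, the 3 most abundant, the 7 core subunits and the assembly factors, and others by range. The values of 1 of the named members are not reported here, though it counts in the totals and medians. Older symbols were matched through RefSeq synonyms. Coding sequences were aligned with Biopython 1.88, other steps used Python 3.11.15 and pandas 2.3.3.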

Additional observations from a re-analysis of the deposited data

How the results depend on the processing

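No structural subunit and no assembly factor was called when p-values were adjusted over protein coding rows alone, over rows with a mean of at least 1 RPKM (lowest adjusted p of the 41 members kept 0.115), or at an adjusted p below 0.1. At an unadjusted p below 0.05 there were 2 structural subunits and 0 assembly factors. The structural median moved by under 0.1 on the log2 scale with pseudocounts of 0.1 and 1, with filters at 1 and 5 RPKM, without Ndufa4 and Ndufa4l2, and relative to coding rows of at least 1 RPKM. Without subunits that have processed copies, a setting not planned in advance, the structural median was -0.375 against -0.464. The assembly median was -0.23 and the structural minus assembly difference -0.21 among members of at least 5 RPKM, which leaves out Ndufaf2. Relative to coding rows of at least 20 RPKM, a choice made after seeing the data, the medians were -0.82 (structural) and -0.84 (assembly). The 4 assembly factors lay below that level, at 5.84 to 13.0 RPKM in control, so for them these rows are not of like level. With all 8 Ndufaf genes the assembly median was -0.34 and the difference -0.12, and with the 18 factors -0.01 and -0.45, both also chosen after seeing the data. Leaving out a replicate could not be run. No paired analysis was possible because the table gives 1 value per group. Depth limits are unknown without read counts.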

Other observations

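The members have short coding sequences, with a median length of 461 bases (210 to 2181). Among 9086 protein coding rows that have a coding length in GENCODE M21 (89.2% of those whose mean is 1 RPKM or more), the 980 rows with over 300 and up to 600 coding bases had a median log2 fold change of 0.24, and the 145 rows of up to 300 bases had one of -0.07. The 671 rows of over 4000 bases had the lowest median, -0.42.

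10 members overlap a row on the other strand in the authors' coordinates. Apart from Shmt2 beside Ndufa4l2, none of these neighbours was called. Among the others, the 2 with the highest levels were Gm16272 beside Ndufb2, at 42.5 RPKM in control against 28.8 RPKM in mutant, and 2010003O02Rik beside Ndufb6, at 22.5 and 17.5 RPKM.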
